A study of Mus musculus with 12 samples.

Results

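Untreated RAW264.7 cells are described here, from the 4 control libraries among the 12 libraries of the series. RAW264.7 is a mouse macrophage-like line that grew out of a tumour induced in a male mouse by Abelson murine leukaemia virus. The study gave its other groups of 4 libraries each either lipopolysaccharide (LPS, 1 µg/mL, 24 h) alone or ferulic acid (10 µM, 12 h) before the same LPS treatment, and neither group is compared here. The control cells received none of these agents, per the labels, which name no vehicle and do not say whether the 4 libraries came from separate cultures. All 4 come from 1 cell line, so the spread between them is the spread between cultures or preparations of that line and may be technical only. Total counts were 37860616, 36006215, 48446195 and 34261236 in libraries 1 to 4. Levels are given as the authors' FPKM, counts scaled to gene length and to the library's total. They allow a rough comparison between genes, apart from genes with near-identical copies. Between libraries this scaling leaves differences in composition, and summed FPKM ran from 358357 to 384695. The sign ± gives the standard deviation over the 4 libraries (n = 4) throughout.

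Macrophages are made and kept by the transcription factor PU.1, which the gene Spi1 encodes, and by signals through the receptor for colony-stimulating factor 1, the product of Csf1r. They carry lysozyme, lysosomal proteases and scavenger receptors for digesting what they engulf. Their pattern receptors sense microbes, and their Fc and complement receptors bind coated particles. Resting cells hold many of these receptors ready, while most cytokine genes stay low until a stimulus arrives.

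The upstream promoter windows of 4 genes are shown because these genes mark the ends of what was measured: Lyz2 and Cd68 are lineage markers at high levels, Eef1a1 was the highest protein-coding gene of the nuclear genome, and Mertk, a macrophage receptor, had no read. Each window holds the 250 bases before the start of the gene, 5′ to 3′, from the RefSeq promoter table of GRCm38.p6, an earlier build than the authors' GRCm39. The capitals mark AGGAAG on either strand (CTTCCT on the strand shown), a core that PU.1 and other ETS factors can bind.
Lyz2, chr10:117282273-117282522, minus strand: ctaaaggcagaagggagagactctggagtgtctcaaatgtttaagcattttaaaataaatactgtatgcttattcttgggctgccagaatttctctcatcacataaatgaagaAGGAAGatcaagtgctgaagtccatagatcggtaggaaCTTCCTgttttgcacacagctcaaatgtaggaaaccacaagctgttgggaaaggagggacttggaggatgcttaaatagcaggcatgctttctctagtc
Cd68, chr11:69666171-69666420, minus strand: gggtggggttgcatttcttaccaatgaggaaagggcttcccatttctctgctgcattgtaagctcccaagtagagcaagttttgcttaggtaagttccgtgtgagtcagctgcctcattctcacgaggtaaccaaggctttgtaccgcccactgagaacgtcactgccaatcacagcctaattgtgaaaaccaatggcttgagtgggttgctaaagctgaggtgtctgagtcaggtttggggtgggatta
Eef1a1, chr9:78481725-78481974, minus strand: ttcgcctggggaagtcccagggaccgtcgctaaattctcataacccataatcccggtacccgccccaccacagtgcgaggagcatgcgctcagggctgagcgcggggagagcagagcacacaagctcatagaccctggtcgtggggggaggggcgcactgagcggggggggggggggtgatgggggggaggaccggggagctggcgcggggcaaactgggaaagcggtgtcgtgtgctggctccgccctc
Mertk, chr2:128698665-128698914, plus strand: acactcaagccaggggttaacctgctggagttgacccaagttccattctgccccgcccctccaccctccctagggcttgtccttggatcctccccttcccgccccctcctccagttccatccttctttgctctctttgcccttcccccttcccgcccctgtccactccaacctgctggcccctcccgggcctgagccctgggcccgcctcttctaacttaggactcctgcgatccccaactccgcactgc
The Lyz2 window holds the motif once on each strand, starting at -137 and -99 from the gene start, and the other 3 windows do not hold these letters. Counted over the first start of each gene, 29.2% of all 27025 promoter windows of this length hold it on either strand. The windows differ in their CG pairs, with 1 in Lyz2, 4 in Cd68, 18 in Eef1a1 and 7 in Mertk, against a median of 6 over all windows. At least 10 CG pairs were found in 38.2% of all windows. The chemokine receptor genes described below had them in 1 of 21 windows and the C-type lectin genes in 1 of 16. Lineage transcription factor genes had them in 29 of 36 windows and mitosis genes in 19 of 22. Other receptor lists differed, with 3 of 18 for Fc and complement receptors and 8 of 19 for the TNF receptor family. Interleukin and interferon receptors had 14 of 30 and nuclear receptors 20 of 27. For the macrophage identity list this count is void, since 18 of its 25 genes matched the table, under the 80% required.

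The libraries carried the lineage markers of macrophages at high levels. Lyz2 (ENSMUSG00000069516 in the files), which encodes the macrophage lysozyme, stood at 2684, 3016, 2696 and 2729 FPKM in libraries 1 to 4. Cd68, a lysosomal membrane glycoprotein (ENSMUSG00000018774), stood at 638, 621, 633 and 571 FPKM. Csf1r (ENSMUSG00000024621) stood at 299, 259.8, 273 and 262 FPKM, with library 1 the highest, and Spi1 (ENSMUSG00000002111) at 89.2, 93.0, 88.4 and 78.3 FPKM, with library 4 the lowest. Lyz2 thus ranked 11th of all genes by mean FPKM and Cd68 75th. A gene is called present below when its FPKM was at least 1 in every library, and near zero when its mean was under 0.1. Of the 25 macrophage identity genes 22 were present and 2 near zero. Among all 25192 genes with a row 40.7% were present and 39.0% near zero, and among protein-coding rows 61.2% and 25.2%. These shares are the background for the counts of every list below. The lists were chosen with earlier results of these data known, so their shares are descriptions and not tests. Tyrobp, the signalling adaptor that Trem2 and other receptors use, averaged 762 ± 107 FPKM, and the galectin Lgals3 446 ± 43.3 FPKM. The integrin chain Itgam (CD11b) averaged 26.7 ± 3.00 FPKM, the F4/80 gene Adgre1 17.8 ± 0.879 FPKM and the leukocyte phosphatase Ptprc (CD45) 13.3 ± 1.42 FPKM. The members near zero were Ly6c2 and Mertk. Ly6c2, a marker of inflammatory monocytes, had 24 reads in all, and whether reads that also match related genes were dropped was not tested. Mertk, a receptor for dying cells, had 0 reads in the 4 libraries together. This allows a level of up to 0.00442 FPKM (3 counts over the pooled total). Between these classes, Ccr2, the monocyte receptor for the chemokine CCL2, stood at 0.367, 0.308, 0.379 and 0.505 FPKM, under 1 in each library.

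**Figure D1:**
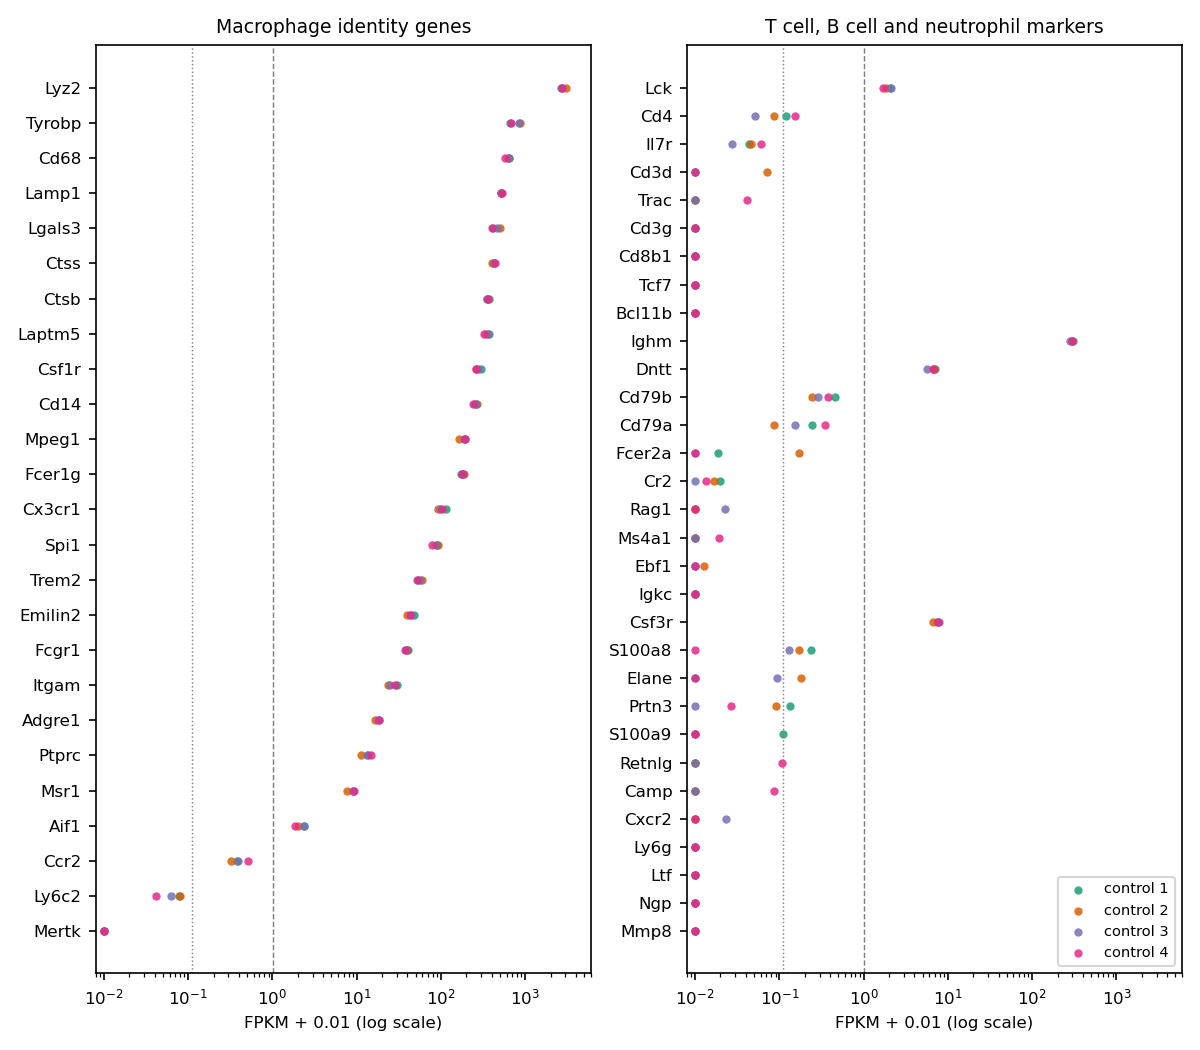
Each point is 1 control library, with FPKM plus 0.01 on a log axis, for the macrophage identity genes on the left and the markers of T cells, B cells and neutrophils on the right. The dashed line marks 1 FPKM and the dotted line 0.1 FPKM. On the left 22 of 25 genes lie right of the dashed line in every library, and on the right Ighm, Dntt, Csf3r and Lck do.

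Markers of other cell types were mostly near zero. Over 10 lists of 107 markers, 71 had a row, of which 51 were near zero and 5 present. Among protein-coding rows 25.2% were near zero and 61.2% present. Markers without a row were left out, so the counts for NK cells, mast cells and epithelium rest on few genes. The 5 present were Bst2, Ighm, Csf3r, Dntt and Lck. Of 9 T cell markers 8 were near zero, with 0 reads for Cd3g, Cd8b1, Tcf7 and Bcl11b. All 3 NK cell and all 4 epithelial markers were near zero, and so were 5 of 6 endothelial, 5 of 7 fibroblast and smooth muscle, 10 of 12 neutrophil, 4 of 8 erythroid and megakaryocyte, 1 of 3 mast cell and basophil and 5 of 9 dendritic cell markers. Their summed levels ranged from 0 to 0.0281 FPKM over the libraries for NK cells, from 0 to 0.0596 for epithelium, from 0.252 to 0.391 for endothelium, from 0.410 to 0.585 for fibroblasts and smooth muscle and from 0.277 to 0.406 for mast cells. Lists with a present gene summed to more. T cell markers summed to 1.89 to 2.17 FPKM, mostly the kinase Lck (2.02, 1.83, 2.10 and 1.66 FPKM), and neutrophil markers to 7.07 to 8.07 FPKM, mostly the G-CSF receptor Csf3r (7.40, 6.66, 7.85 and 7.67 FPKM). Dendritic cell markers summed to 147 to 165 FPKM, mostly Bst2 (155 ± 7.43 FPKM), an interferon-inducible membrane protein that macrophages express too. Erythroid and megakaryocyte markers summed to 2.03 to 2.32 FPKM with no present gene, mostly the erythropoietin receptor Epor (0.943, 0.977, 0.934 and 0.851 FPKM) and the platelet glycoprotein Gp9 (0.540, 0.694, 0.656 and 0.861 FPKM). In the bulk RNA of a line, fewer cells that carry a transcript and less of it in each cell cannot be told apart.

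The B cell list stood out through the immunoglobulin heavy chain locus. Ighm (ENSMUSG00000076617), the constant region of the µ heavy chain, stood at 302, 293, 279 and 299 FPKM, from 86270 reads in all. Its 4 values lay close together and above those of Csf1r in each of the 4 libraries. Dntt, the terminal transferase that adds bases at rearranging antigen receptor genes, stood at 7.08, 6.80, 5.59 and 6.72 FPKM, lowest in library 3. The other B cell genes did not share these levels. The light chain constant gene Igkc had 0 reads, the µ chain's signalling partners Cd79a and Cd79b averaged 0.199 and 0.329 FPKM, and Ms4a1 (CD20), Ebf1 and Rag1 had 2, 1 and 4 reads. The whole list summed to 285 to 309.6 FPKM, with 2 of 10 genes present and 6 near zero. Further segments of the heavy chain locus, looked at after these values were seen, also had reads: the joining segment Ighj1 had 1974, Ighj4 273, Ighj2 274, the diversity segment Ighd4-1 244, and the δ constant gene Ighd 659 reads at 2.24 FPKM.

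Of the 45 lineage and macrophage transcription factors 33 were present and 6 near zero. Spi1 was the highest of them. The interferon regulatory factors Irf5 and Irf8, both needed for myeloid programmes, averaged 34.2 ± 1.76 and 18.6 ± 0.421 FPKM. The C/EBP factors averaged 19.6 ± 2.30 FPKM for Cebpb, 15.3 ± 0.593 for Cebpa, 4.98 ± 0.689 for Cebpe and 4.50 ± 0.677 for Cebpd, and the ETS factor Fli1 averaged 28.6 ± 3.26 FPKM. The AP-1 gene Junb stood at 37.3, 39.95, 36.0 and 33.3 FPKM and the stress-induced factor Atf3 at 21.7, 23.1, 24.3 and 24.0 FPKM. Several factors known from other stages were low. Maf had 2 reads, the progenitor factor Myb 4 and the dendritic cell factor Batf3 4 reads. Myc, the growth regulator, averaged 0.105 ± 0.0314 FPKM, at the edge of the near-zero class. Of 11 factors known from tissue-resident macrophages 6 were present and 2 near zero. Nfatc1, the osteoclast factor, averaged 19.9 ± 1.20 FPKM and Mef2c 13 ± 1.56 FPKM, while Pparg, the factor of alveolar macrophages, had 0 reads (up to 0.00649 FPKM) and the splenic factor Spic 8 reads. Of 14 osteoclast genes 8 were present (57.1%) and 5 near zero (35.7%), against 61.2% and 25.2% of protein-coding rows. The proton pump subunit Tcirg1 averaged 56.3 ± 2.86 FPKM, the RANK receptor Tnfrsf11a 7.90 ± 0.550 and the acid phosphatase Acp5 3.71 ± 0.167 FPKM, against 0.0659 FPKM for cathepsin K (Ctsk). The sex-linked genes were those of a male line, with Eif2s3y at 13.6, 12.5, 14 and 14.9 FPKM and Ddx3y at 5.17, 4.93, 5.22 and 6.74 FPKM from the Y chromosome and 8 reads for Xist, the X-inactivation RNA. Of the 6 genes 4 were present and 2 near zero.

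Among the most abundant transcripts were those of mitochondria and of translation. The highest row was Rn18s-rs5, annotated as an 18S RNA related sequence, with 5.24%, 3.99%, 4.02% and 5.56% of the counts in libraries 1 to 4 of these oligo-dT selected samples. Next came mt-Co1, the mitochondrially encoded subunit of cytochrome oxidase, at 12333, 14967, 13909.7 and 12862 FPKM, then mt-Nd1 (4732 ± 425) and mt-Cytb (4518 ± 259.5 FPKM). The elongation factors Eef1a1 and Eef2 averaged 4157 ± 174 and 2817 ± 252 FPKM, and the ribosomal proteins Rplp1, Rps15 and Rps3a1 3777 ± 649, 3156 ± 314 and 2826 ± 290.0 FPKM. Lyz2, the glycolytic enzyme Pkm (1963 ± 164 FPKM), the cysteine protease inhibitor Cst3 (1359 ± 155 FPKM) and prothymosin Ptma (1330.4 ± 59.1 FPKM) were also among the highest 30 rows. The rest of those 30 included mt-Nd2, mt-Nd5 and mt-Nd6, the ribosomal protein genes Rpl32, Rpl41, Rpl8, Rps26, Rps4x and Rplp0, and the 7 pseudogene rows Gm15772, Rps2-ps10, Gm8730, Gm13394, Rps7-ps3, Gm9794 and Gm12191.

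The 50 genes of highest mean CPM held 20.8% ± 0.437 of the counts, and 566 to 646 genes held 50% of a library. The 79 cytosolic ribosomal protein genes took 7.89%, 10.2%, 9.32% and 8.20% of the counts in libraries 1 to 4, and the 15 mitochondrially encoded genes 4.13% ± 0.257. By level, 41 genes had a mean of at least 1000 FPKM and held 17.5% of the counts, 408 genes lay from 100 to 1000 FPKM (23.5%) and 4100 from 10 to 100 FPKM (43.4%). At the other end, 2258 rows had 0 reads in every control library. Of the rows annotated as protein coding 61.2% were present, against 17.9% of the pseudogenes and 4.60% of the long noncoding genes.

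Levels of genes with near-identical copies are uncertain in this table. All 15 mitochondrially encoded genes were present, but mt-Co2, mt-Co3 and mt-Atp6 averaged 70.5, 122 and 61.3 FPKM, against 13518 FPKM for mt-Co1, a subunit of the same enzyme as mt-Co2 and mt-Co3. Gapdh, a glycolytic enzyme with many processed copies in the mouse genome, averaged 5.92 ± 1.80 FPKM, while its neighbours in the pathway Tpi1 and Pgk1 averaged 748 ± 71.5 and 805 ± 34.6 FPKM. Of the 79 ribosomal protein genes 77 were present, with Rplp1 the highest, while Rpl24 and Rpl21 averaged 0.629 and 0.622 FPKM. How the authors' counting treated reads that match several places was not tested.

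The receptor lists together named 380 genes with a row, of which 193 (50.8%) were present, 126 (33.2%) near zero and 61 in between. For all rows, which include pseudogenes and noncoding genes, the shares were 40.7% and 39.0%, and for protein-coding rows alone 61.2% and 25.2%. The receptor genes were thus present more often than the average of all rows and less often than protein-coding rows. The lists differed widely. The share present ran from 18 of 22 cytosolic sensors to 6 of 25 chemokine receptors and 3 of 15 receptors for amines, acetylcholine and hormones.

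**Figure D2:**
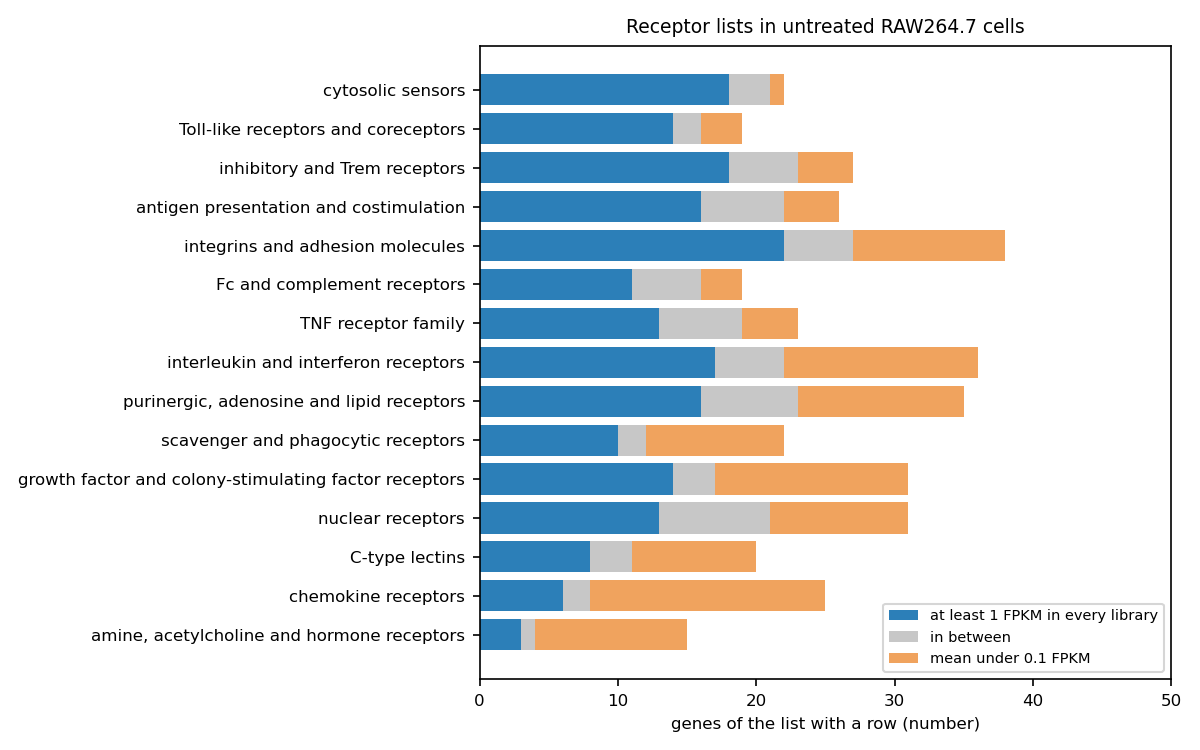
Bars give the number of genes with a row in each of 15 receptor lists, split into genes of at least 1 FPKM in every control library (blue), genes in between (grey) and genes with a mean under 0.1 FPKM (orange). Cytosolic sensors have 18 of 22 genes present, and chemokine receptors have 17 of 25 near zero.

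Toll-like receptors (TLRs) recognise microbial molecules at the surface or in endosomes, and 14 of the 19 TLR and coreceptor genes with a row were present and 3 near zero. Among the TLRs themselves Tlr2, the receptor for bacterial lipoproteins, was highest at 75.1, 68.2, 71.2 and 75.7 FPKM. Tlr7, which senses single-stranded RNA, followed at 45.7, 42.1, 46.1 and 52.8 FPKM, then Tlr13, a mouse sensor of bacterial ribosomal RNA, at 20.4, 17.4, 19.0 and 20.8 FPKM. The ranges of these 3 genes did not overlap. Tlr4 (ENSMUSG00000039005), the LPS receptor, stood at 7.71, 7.16, 8.98 and 8.69 FPKM, below Tlr13 without overlap. Its partner Ly96 (MD-2) stood at 6.11, 6.75, 6.73 and 8.0 FPKM, and Tlr1, Tlr9 and Tlr6 averaged 6.58 ± 1.15, 6.51 ± 0.928 and 5.55 ± 0.621 FPKM. From Tlr4 down to Tlr6 the range of each gene over the 4 libraries overlapped that of the next, so their order is not resolved by these libraries. Cd14, which hands LPS to the Tlr4 complex, stood far above at 252, 269, 259.7 and 242 FPKM, and the endosomal TLR chaperone Unc93b1 averaged 146 ± 5.01 FPKM. Tlr3, the sensor of double-stranded RNA, stood at 0.421, 0.176, 0.143 and 0.426 FPKM, under 1 in each library. Tlr8 averaged 0.0624 FPKM, and the flagellin receptor Tlr5 and the serum LPS-binding protein gene Lbp had 8 and 6 reads. The TLR4 signalling list holds Cd14, Tlr4 and Ly96, the chain behind them and inhibitors of the pathway. Of its 32 genes 31 were present and 0 near zero. The adaptor Myd88 averaged 38.2 ± 1.78 FPKM, the inhibitor Nfkbia 45.4 ± 2.08 FPKM, and the 1 member not called present, the kinase Ikbke, 0.885 ± 0.0933 FPKM.

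Of the 22 cytosolic sensors 18 were present and 1 near zero. Sting1, the adaptor of the DNA-sensing pathway, averaged 24.1 ± 1.08 FPKM, its upstream enzyme Cgas 11.4 ± 1.70 FPKM, the DNA sensor Aim2 18.8 ± 1.67 FPKM and Nlrp3 12.4 ± 0.692 FPKM. Nod2, which senses muramyl dipeptide, averaged 1.78 ± 0.337 FPKM and Nod1 0.340 ± 0.105 FPKM. The Naip and Ifi200 family members of this list (Naip1, Naip2, Naip5, Naip6, Ifi204 and Mndal) have near-identical copies, and their single values are uncertain. Of the 16 inflammasome and pyroptosis genes 13 were present. Casp1, the protease that matures interleukin-1β, averaged 22.1 ± 1.56 FPKM, the pore protein Gsdmd 31.8 ± 0.882 FPKM and the redox regulator Txnip 259 ± 3.54 FPKM. Pycard, which encodes ASC, the adaptor that joins Nlrp3 and Aim2 to Casp1, had 2 reads in the 4 libraries together, with an exact 95% Poisson interval that ends at 0.0121 FPKM. This interval and the upper limits given for genes with 0 reads cover counting error only.

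Receptors for uptake stood at both ends of the range. Of 22 scavenger and phagocytic receptors 10 were present and 10 near zero. Below Cd68, the lysosomal receptor Scarb2 averaged 28.2 ± 1.80 FPKM and Lrp1 27.2 ± 3.79 FPKM, with overlapping ranges. The scavenger receptor Msr1 averaged 8.76 ± 0.676 FPKM. Marco had 2 reads, Olr1 2, Stab1 19 and the phosphatidylserine receptor Havcr1 2 reads. Of Mertk's relatives Axl averaged 0.406 ± 0.128 FPKM and Tyro3 0.0570 ± 0.0185 FPKM, so the whole TAM receptor family stood under 1 FPKM. Of 19 Fc and complement receptor genes 11 were present (57.9%) and 3 near zero (15.8%), against 61.2% and 25.2% of protein-coding rows. The Fc receptor γ chain Fcer1g averaged 182 ± 6.85 FPKM and the high-affinity IgG receptor Fcgr1 39.0 ± 1.39 FPKM. Fcgr3 stood at 22.8 ± 1.03, Fcgr4 at 5.12 ± 0.578 and the inhibitory Fcgr2b at 5.06 ± 0.0896 FPKM. The C5a receptor C5ar1 averaged 14 ± 0.999 FPKM against 1.17 ± 0.198 FPKM for the C3a receptor C3ar1.

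C-type lectins, which bind sugars of microbes and dying cells, were present in 8 of 20 genes and near zero in 9. Clec5a averaged 22.8 ± 2.12 FPKM, the inhibitory Clec12a 20.03 ± 1.64 and Cd302 19.97 ± 1.64 FPKM, with overlapping ranges. The β-glucan receptor Clec7a (Dectin-1) averaged 3.59 ± 0.200 FPKM and the mycobacterial glycolipid receptor Clec4e (Mincle) 5.37 ± 0.467 FPKM. The mannose receptor Mrc1, a marker of alternative activation, had 58 reads in all, at 0.0829, 0.0567, 0.0324 and 0.0687 FPKM. Of 27 inhibitory and Trem family genes 18 were present and 4 near zero. Sirpa, which reads the CD47 signal on other cells, averaged 63.5 ± 1.65 FPKM, the sialic acid receptor Cd33 57.9 ± 6.25 FPKM, Cd300lb 59.6 ± 0.827 FPKM and Trem2, a lipid receptor, 55.9 ± 3.44 FPKM. Trem1, the amplifier of inflammation, had 0 reads (up to 0.00640 FPKM) and so had Pilrb1, and Siglecf had 1 read.

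Chemokine receptors were dominated by 1 gene. Cx3cr1, the fractalkine receptor, stood at 114, 91.7, 96.1 and 103 FPKM, highest in library 1. The other 5 present members, Cxcr3, Ccrl2, Cxcr4, Ccr10 and Cxcr5, averaged from 1.27 to 1.64 FPKM, with ranges that overlapped from each to the next. Of the 25 genes 17 were near zero, and Ccr3, Ccr8, Cxcr1 and the formyl peptide receptors Fpr1 and Fpr2 were among those with 0 reads. For Ccr3 and Fpr1 this allows up to 0.00586 and 0.0145 FPKM.

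**Figure D3:**
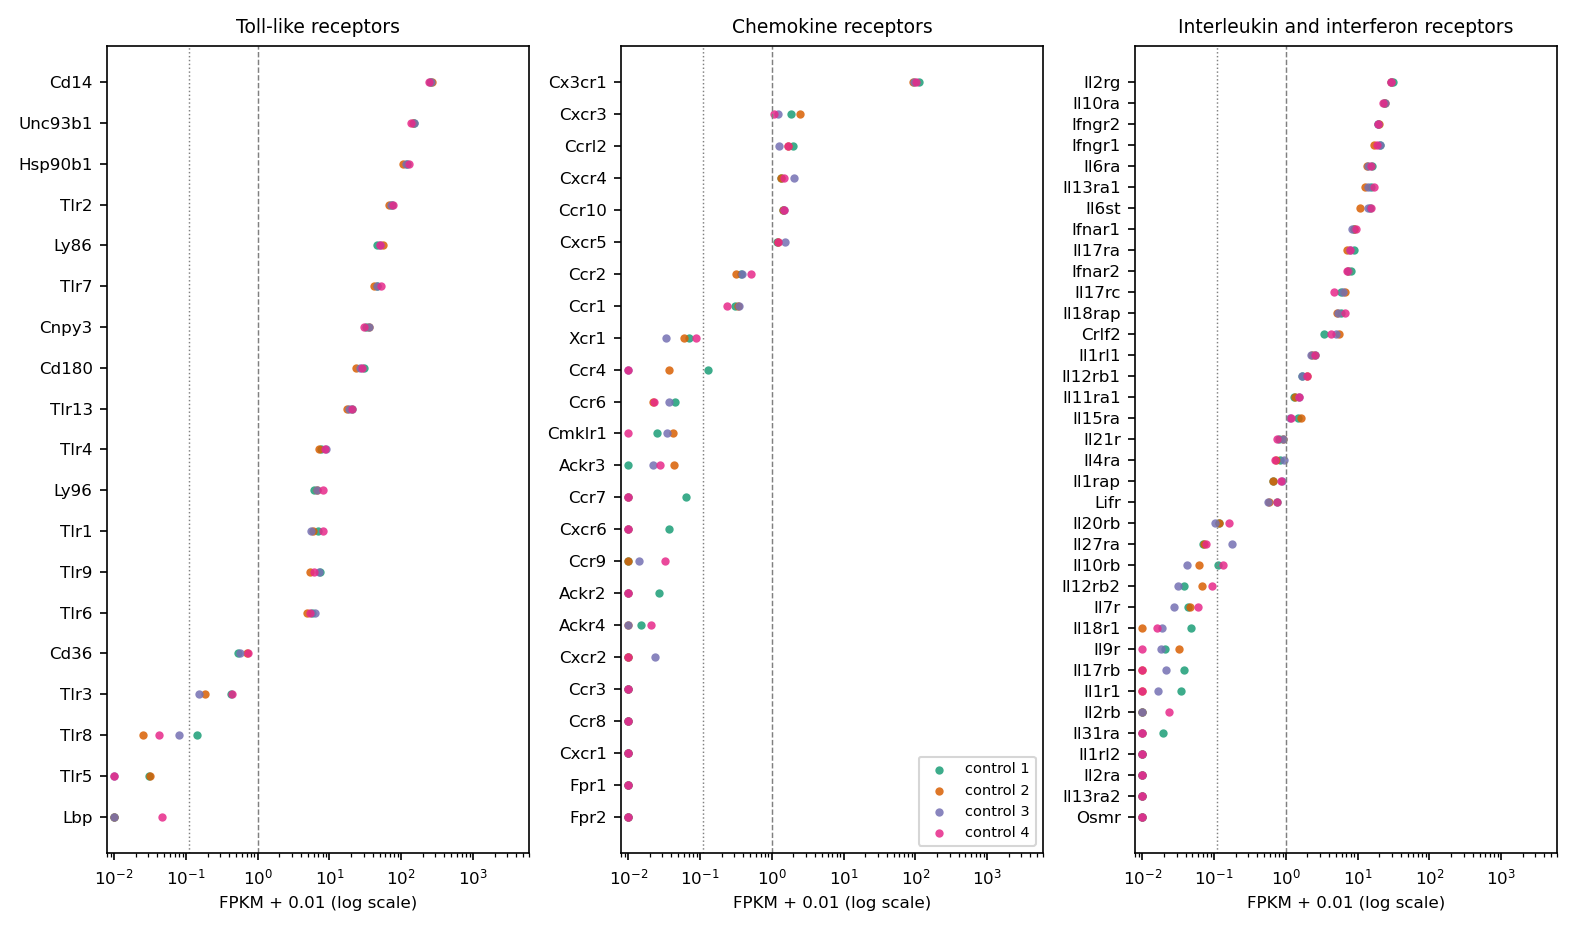
Each point is 1 control library, with FPKM plus 0.01 on a log axis, for TLRs and their cofactors, 24 chemokine receptors and receptors of interleukins and interferons, ordered by mean. Dashed and dotted lines mark 1 and 0.1 FPKM. Cx3cr1 lies alone near 100 FPKM, and the chemokine receptors with 0 reads lie at the left edge.

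Of 31 receptors for growth and colony-stimulating factors 14 were present and 14 near zero. Csf1r stood above the next, the TGF-β receptor Tgfbr2 (34.3 ± 2.80 FPKM), in every library. The chains of the GM-CSF receptor averaged 7.14 ± 0.891 FPKM for Csf2ra and 4.65 ± 0.191 FPKM for Csf2rb, and the bone morphogenetic protein receptor Bmpr1a 11.6 ± 1.05 FPKM. Many receptor tyrosine kinases known from other tissues had few reads or none, with 0 for Fgfr1, Erbb2 and Igf1r, and 25, 8 and 4 reads for Egfr, Kdr and Met. Erbb3, a relative of Egfr, stood at 5.70, 4.81, 5.04 and 5.85 FPKM. Among 36 interleukin and interferon receptor genes 17 were present and 14 near zero. The common γ chain Il2rg averaged 29.6 ± 0.995 FPKM, the interleukin-10 receptor chain Il10ra 23.5 ± 0.877, the interferon-γ receptor chains Ifngr1 and Ifngr2 19.1 ± 1.85 and 19.2 ± 0.346, and the type I interferon receptor chains Ifnar1 and Ifnar2 8.92 ± 0.419 and 7.42 ± 0.407 FPKM. Paired chains did not always stand together. Il10rb, the partner of Il10ra, averaged 0.0776 FPKM, and Il18r1 had 10 reads beside 5.75 ± 0.682 FPKM for its partner Il18rap. The interleukin-1 receptor Il1r1 had 8 reads, and Il2ra, Il1rl2, Il13ra2 and Osmr had 0. The interleukin-4 receptor chain Il4ra stood at 0.814, 0.722, 0.918 and 0.700 FPKM, under 1 in every library. Of 23 TNF receptor family genes 13 were present and 4 near zero. Tnfrsf1a, the main TNF receptor, averaged 44.4 ± 2.61 FPKM, Tnfrsf1b 8.98 ± 0.627 and the lymphotoxin β receptor Ltbr 22.9 ± 0.908 FPKM. Tnfrsf17 and Tnfrsf13b, receptors for the B cell survival factors BAFF and APRIL, averaged 4.64 ± 0.561 and 4.09 ± 0.731 FPKM, and the third receptor of that set, Tnfrsf13c, had 21 reads. The death receptor Fas averaged 0.261 ± 0.147 FPKM.

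Receptors for small molecules differed between families. Of 35 receptors for purines, adenosine and lipids 16 were present and 12 near zero. The oxysterol receptor Gpr183 averaged 43.0 ± 1.49 FPKM, the uridine diphosphate receptor P2ry6 19.2 ± 0.528, the lysophosphatidic acid receptor Lpar5 11.9 ± 0.859 and the ATP-gated channel P2rx7 7.56 ± 0.626 FPKM. The prostacyclin receptor Ptgir averaged 8.55 ± 0.702 FPKM, the prostaglandin E receptor Ptger4 1.53 ± 0.180 FPKM and Ptger2 had 2 reads. Only 3 of 15 receptors for amines, acetylcholine and hormones were present, among them Calcrl, a receptor of calcitonin gene-related peptide and adrenomedullin, at 6.15 ± 0.502 FPKM, and the insulin receptor Insr at 2.62 ± 0.223 FPKM, while 11 were near zero. Another 15 genes of that list were not analysed here. Of 31 nuclear receptors 13 were present and 10 near zero. The retinoid X receptor Rxrb averaged 36.8 ± 3.89 FPKM, against 0.115 ± 0.0396 FPKM for Rxra. The liver X receptor Nr1h2 averaged 19.9 ± 1.56 against 1.20 ± 0.398 FPKM for Nr1h3, and Ppard 9.87 ± 0.205 FPKM against 11 reads for Ppara and 0 for Pparg. The first gene of each of these 3 comparisons stood above the other in every library. The glucocorticoid receptor Nr3c1 averaged 6.26 ± 0.928 FPKM.

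Of 38 integrins and adhesion molecules 22 were present (57.9%) and 11 near zero (28.9%), near the 61.2% and 25.2% of protein-coding rows. The tetraspanin Cd53 averaged 218 ± 19.2 FPKM, and the integrin chain Itga4, which pairs with Itgb1 or Itgb7, stood at 144, 108, 132 and 146 FPKM, with Itgb1 at 44.8 ± 3.96, the leukocyte β2 chain Itgb2 at 67.5 ± 5.38 and Itgal at 3.33 ± 0.547 FPKM. The adhesion ligand Vcam1 had 2 reads. Antigen presentation genes were present in 16 of 26 cases (61.5%, against 61.2% of protein-coding rows) and near zero in 4 (15.4%, against 25.2%). Class I was well represented, with B2m at 1041 ± 83.0 FPKM, H2-D1 at 181 ± 5.86 and H2-K1 at 43.4 ± 2.32 FPKM, both of a multicopy family. Class II was split. The invariant chain Cd74 stood at 266, 264, 273 and 246 FPKM, which was far above the peptide-binding chains. H2-Aa stood at 0.250, 0.314, 0.196 and 0.269 FPKM and H2-Ab1 at 0.401, 0.303, 0.209 and 0.159 FPKM. The class II transactivator Ciita stood at 0.127, 0.105, 0.0953 and 0.0735 FPKM. No value of H2-Aa, H2-Ab1, H2-Ea or H2-Eb1 reached that of Cd74 in any library. The costimulatory ligands Cd80 and Cd86 averaged 1.31 ± 0.186 and 0.0894 ± 0.0789 FPKM, Cd40 2.00 ± 0.436 and Tnfsf9 (4-1BB ligand) 35.1 ± 2.74 FPKM.

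Few secreted factors stood at high levels in the untreated cells. Of 20 proinflammatory cytokines 4 were present and 9 near zero. Mif, the macrophage migration inhibitory factor, stood at 654, 791, 782 and 651 FPKM, higher in libraries 2 and 3 than in 1 and 4. Il18 averaged 15.2 ± 1.48 FPKM and Tnf stood at 11.5, 15.8, 11.4 and 11.2 FPKM. The interleukins Il1b, Il1a and Il6 had 16, 6 and 2 reads in the 4 libraries together, and Il12b and Il33 had 0. Of 20 anti-inflammatory cytokines and growth factors 8 were present and 8 near zero. Osteopontin (Spp1) averaged 409 ± 29.2 FPKM, progranulin (Grn) 389 ± 22.8, Vegfb 33.7 ± 2.24 and Tgfb1 29.7 ± 2.18 FPKM, against 2 reads for Il10. Of 25 chemokines 5 were present and 14 near zero. Ccl9 averaged 142 ± 10.4 FPKM, Ccl3 76.4 ± 2.69, Ccl4 18.8 ± 2.95 and the membrane-bound Cxcl16 14.9 ± 1.35 FPKM, while Ccl2 averaged 0.137 ± 0.0889 FPKM and Cxcl1, Cxcl3, Cxcl9 and Ccl12 had 0 reads. Complement genes were present in 5 of 17 cases and near zero in 9. Properdin (Cfp) averaged 17.1 ± 2.79 FPKM, and C1qb, a chain of the C1q recognition protein, had 2 reads. Of 23 metalloproteinase and plasminogen system genes 6 were present and 14 near zero. The sheddases Adam10 and Adam17 averaged 37.1 ± 4.36 and 24.1 ± 3.11 FPKM and the urokinase Plau 22.4 ± 1.10 FPKM, while Mmp9, Mmp12 and Mmp14 had 8, 42 and 2 reads.

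Antimicrobial enzymes were present in 17 of 22 cases. Lyz1, the close copy of Lyz2, averaged 536 ± 62.9 FPKM, and reads may be shared between both. Subunits of the NADPH oxidase were present, with Cyba at 222 ± 20.2 FPKM, the catalytic subunit Cybb at 177 ± 22.3, Ncf1 at 159.5 ± 2.23, Ncf4 at 45.4 ± 1.65 and the GTPase Rac2 at 164 ± 9.58 FPKM. The inducible enzymes stood lower, with Nos2 at 4.26 ± 0.339 FPKM, the itaconate enzyme Acod1 at 2.91 ± 0.248, Ptgs2 at 0.843 ± 0.0982 and Arg1 at 0.136 ± 0.0331 FPKM. Of 28 lysosomal genes 26 were present. Cathepsin Z (Ctsz) averaged 549.9 ± 8.98 FPKM, prosaposin (Psap) 532 ± 19.3, Lamp1 518 ± 12.6, Ctss 425 ± 13.9 and legumain (Lgmn) 424 ± 7.80 FPKM.

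The housekeeping lists were nearly complete. All 43 nuclear respiratory chain genes, all 26 G2 and mitosis genes and all 28 S phase genes were present, as were 23 of 24 glycolytic, 26 of 28 cholesterol, 31 of 32 actin cytoskeleton, 27 of 30 iron and redox, 16 of 18 chaperone and 18 of 19 translation factor genes. Mitotic genes led with Cdc20 at 87.1 ± 2.98 FPKM and Ccnb2 at 79.9 ± 2.82 FPKM, and Mki67, the proliferation marker, averaged 46.1 ± 5.73 FPKM. Pcna, the replication clamp, averaged 111 ± 8.20 and the helicase subunit Mcm3 78.0 ± 2.61 FPKM. Of 16 cell cycle inhibitors and p53 axis genes 14 were present, with Trp53 at 76.3 ± 3.43 and Cdkn1a at 47.9 ± 2.70 FPKM, while Cdkn2a, which encodes the p16 and p19 inhibitors, had 1 read. In glycolysis Ldha averaged 746 ± 72.1 FPKM against 2 reads for Ldhb, the other lactate dehydrogenase chain. Actb, the cytoplasmic actin, averaged 863 ± 34.6 FPKM and Tmsb4x, which binds its monomers, 450.1 ± 59.6 FPKM. The cholesterol list led with Fdps at 101 ± 6.06 FPKM, the sterol regulator Srebf2 averaged 57.9 ± 2.31 FPKM, and the efflux pumps split into Abcg1 at 23.3 ± 3.01 and Abca1 at 0.336 ± 0.0860 FPKM. The ferritin chains Fth1 and Ftl1 averaged 463 ± 15.7 and 459.9 ± 32.5 FPKM, with overlapping ranges. Prdx1 (ENSMUSG00000028691), the peroxiredoxin named in the series title, stood at 285, 394, 369 and 316 FPKM, higher in libraries 2 and 3 than in 1 and 4, and above the other peroxiredoxins, of which Prdx3 was next at 77.3 ± 6.96 FPKM. The quinone reductase gene Nqo1 had 0 reads (up to 0.0123 FPKM), and the iron exporter gene Slc40a1 averaged 0.0499 FPKM. Among chaperones Hsp90ab1 averaged 1013 ± 44.4 and Hspa8 345 ± 16.7 FPKM, while Hspb1 had 4 reads and Hspa1a 0. Whether reads of Hspa1a that also match related genes were dropped was not tested. Of the translation factors, Tpt1 followed the elongation factors at 661 ± 49.9 FPKM, and Eef1a2, the muscle and nerve form, had 0 reads.

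The 4 libraries were close to each other but not within counting error. For every pair, the chi-square per gene was 11.6 or more, and it was lowest for libraries 1 and 4 and next for 2 and 3 (14.4). It was highest for libraries 1 and 2 (40.4) and 2 and 4 (39.7). Among the 4549 genes of at least 10 FPKM, 5 to 13 differed by more than 2-fold within a pair, and Pearson's r across these genes, which are not independent replicates, was 0.987 to 0.995 for log2 CPM. The first principal component held 65.4% of the variance among the libraries, with scores of 9.50 and 3.40 for libraries 2 and 3 and -6.93 and -5.98 for libraries 1 and 4. The biological coefficient of variation, edgeR's estimate of the spread beyond counting error, was 0.112 over 12840 genes. Without library 2 it was 0.101 and without library 3 0.124.

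The coefficient of variation (CV) of a gene over the 4 libraries had a median of 10.2% for genes of 1 to 10 FPKM, 7.40% from 10 to 100 FPKM, 9.65% from 100 to 1000 FPKM and 12.3% for the 41 genes above. Counting error alone gives medians of 3.78%, 1.81%, 0.783% and 0.347% in these ranges. The genes with the most reads thus did not have the lowest CV. From 0.1 to 1 FPKM the median was 42.2%, so single values in that range are the least certain. Pseudogenes of at least 10 FPKM had a median CV of 14% (n = 254 genes), against 7.25% for protein-coding genes (n = 4228 genes), and 60 of them exceeded 20%, against 53 protein-coding genes.

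**Figure D4:**
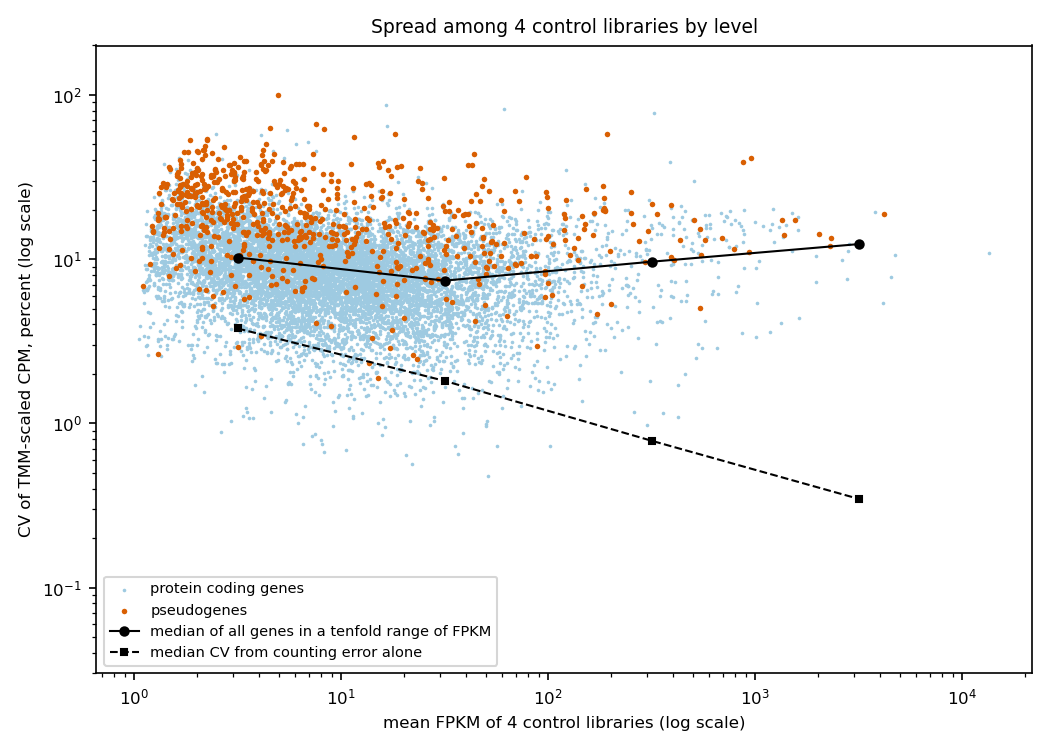
Each point is a present gene (pseudogenes in orange, protein-coding genes in blue), with mean FPKM on the horizontal and the CV of its TMM-scaled CPM over the 4 control libraries on the vertical axis, both on log scales. The solid line joins the median CV of genes in 4 ranges of FPKM and the dashed line the median CV that counting error alone would give. The dashed line drops to 0.347% at the highest levels while the solid line stands at 12.3%.

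The 10 genes of largest CV at 10 FPKM or more included 3 mitochondrially encoded genes, the ribosomal protein gene Rpl17 and pseudogenes. mt-Nd4l stood at 11.1, 2.39, 2.84 and 2.98 CPM, high in library 1, and mt-Atp6 at 21.0, 94.3, 25.7 and 27.9 CPM, high in library 2. Rpl17 stood at 403, 926, 209.8 and 205 CPM, and its copy Rpl17-ps10, looked at after these values were seen, at 480.2, 223, 658 and 575 CPM. The copy was thus lowest in library 2, where Rpl17 was highest. Their sum had a CV of 17.3%, against 77.9% for Rpl17 and 38.9% for the copy. For Rps27a and its copy Rps27a-ps3 the sum had a CV of 23.3%, against 29.9% for Rps27a and 57.8% for the copy. Rps27a itself stood at 998, 960, 653 and 1381 CPM, far above this copy in every library. Rpl17 and Rps27a-ps3 were picked for their large CV in these same libraries, so a lower CV of a sum can come in part from that choice. Whether reads moved between a gene and its copy was not tested. Rps27a-ps3 stood at 55.7, 126, 147 and 37.7 CPM and the pseudogene Gm10123 at 609, 506, 183 and 569 CPM, low in library 3. The others were mt-Atp8, Gm12960, Gm15421, Rps27a-ps2 and a row without a symbol. Among protein-coding genes that are neither mitochondrially encoded nor named as ribosomal proteins, Ppia, the cyclophilin A gene often used as a reference in PCR, had the largest CV (38.8%), with 921, 1795, 1849 and 892 CPM in libraries 1 to 4. Libraries 2 and 3 were thus far above libraries 1 and 4 for this gene, which has many processed copies and was singled out after its values were seen. At the other end the 10 steadiest genes, Abcf1, Arsb, Snx12, Rasa3, Mtmr9, Gars, Nmt1, Mta2, Stx2 and Wars1, had CVs of 0.479% to 0.875%. Abcf1 stood at 226, 226, 228 and 226 CPM. Its CV lies under the 1.06% that counting error gives on average, as the lowest of many genes can.

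The deviations between libraries varied with gene length. Genes of at least 10 FPKM were split by length into 4 equal bins, and deviations are from the mean of the 4 libraries in log2 CPM. In the shortest 25%, with a median length of 1316 bases, the median deviation was -0.12, 0.16, 0.06 and -0.09 in libraries 1 to 4. In the longest 25% it was 0.04, -0.06, 0.01 and 0.01. For the shortest genes libraries 2 and 3 thus stood above the mean and libraries 1 and 4 below it. Across 4549 genes Spearman's rho between length and deviation was 0.511, -0.561, -0.251 and 0.311 in libraries 1 to 4, and with the GC content of the transcripts it was 0.0108, 0.348, 0.255 and -0.605. The GC relation was strongest in library 4, and the genes of a library share its depth and preparation.

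Some gene lists deviated together in the same order of libraries. Ribosomal protein genes deviated by a median of -0.21, 0.26, 0.11 and -0.14 on the log2 CPM scale in libraries 1 to 4, and nuclear respiratory chain genes by -0.18, 0.20, 0.08 and -0.10. The part of gene length in these deviations was not tested. Macrophage identity genes and lineage transcription factors deviated less than both in each library. Macrophage identity genes deviated by 0.02, 0.03, 0.03 and -0.06, and lineage transcription factors by -0.02, 0.00, 0.01 and 0.02. The median CV of the members of at least 10 FPKM was 16% for ribosomal proteins and 13.9% for the respiratory chain, 6.59% for macrophage identity genes and 7.45% for lineage factors, against 7.55% for all genes at that level. The identity genes and the lineage factors were thus near the value of all genes.

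**Figure D5:**
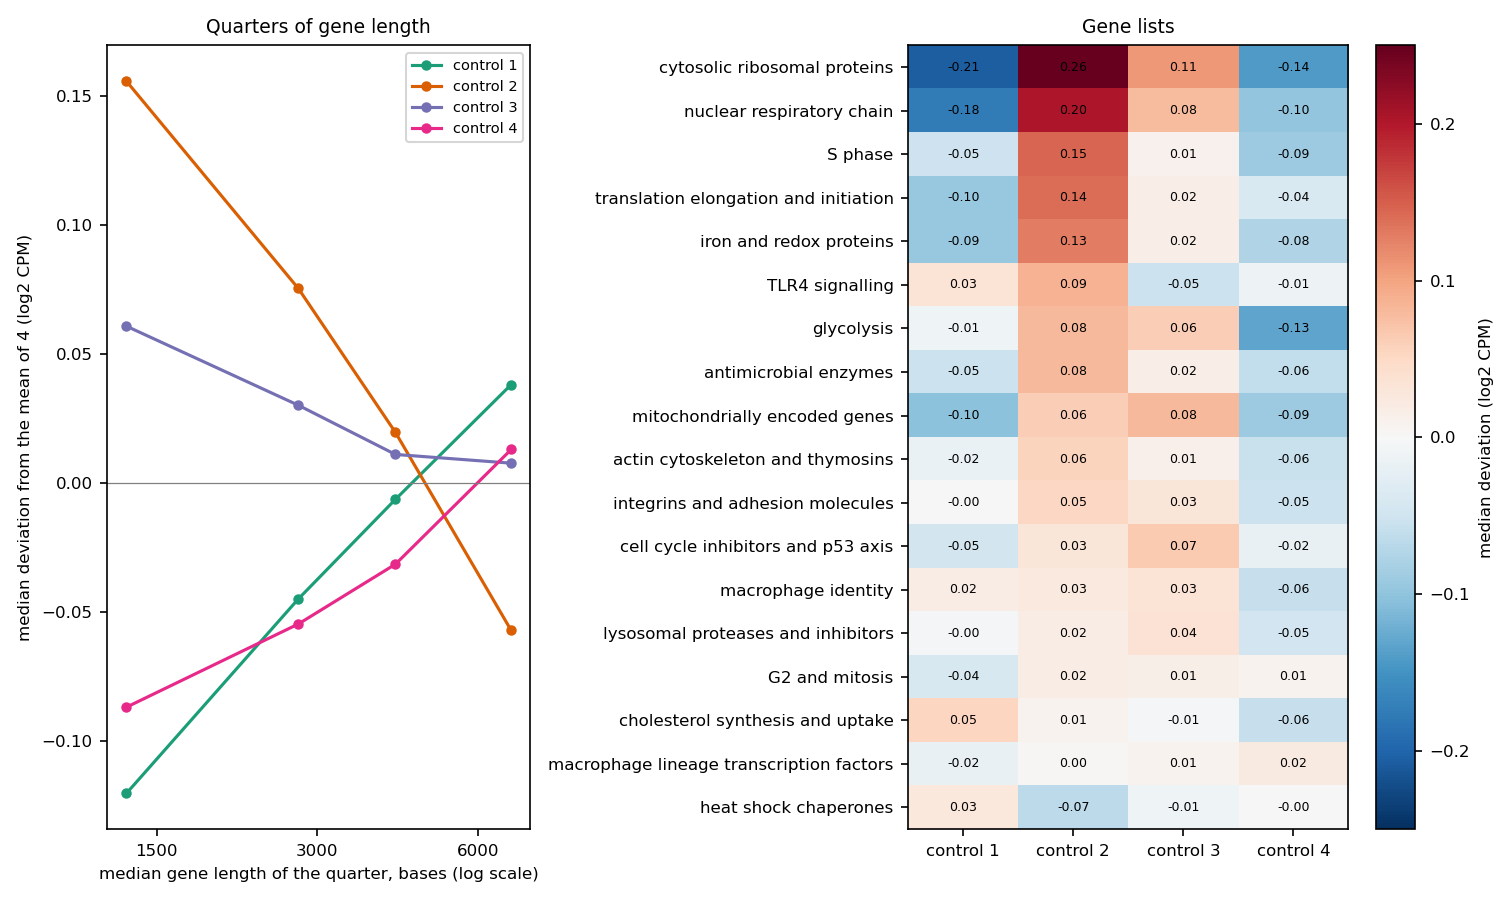
On the left, each line is 1 control library, for genes of 10 FPKM or more in 4 equal bins of length. The vertical axis gives the median deviation from the mean of the 4 libraries (log2 CPM). On the right, rows are gene lists with at least 10 genes of 10 FPKM or more, and cells give the same median deviation. Library 2 stands at 0.16 for the shortest genes and 0.26 for ribosomal proteins, and library 1 at -0.12 and -0.21.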

How the data were processed

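The cells, the library preparation with oligo-dT beads and the sequencing are known from the labels only. Per the submitters' processing notes, the build was GRCm39 and the tools named, without roles, were featureCounts 2.0.6, HISAT2 2.2.1, edgeR 3.36.0, fastp 0.23.4 and DESeq2 1.34.0. The handling of strand and of reads that match several places is stated nowhere in the labels. The deposited table gives read counts per gene and the authors' FPKM values for each library, and the FPKM were checked to be counts divided by library total and by a length that is the same in every library.

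From these, only the 4 control libraries were used, with 0 columns left unmapped. Present, near zero and the upper limit for 0 reads (3 counts over the pooled total) were taken from the FPKM and the counts. The coefficient of variation was computed on TMM-scaled CPM. The biological coefficient of variation came from edgeR 4.0.16 in R 4.3.3 (common dispersion, intercept only, filterByExpr). On simulated counts of 8685 genes it returned 0.0632 for a set value of 0.05, with 200 of the genes given a larger spread. That set value lies below the 0.112 of the data, so the simulation does not check the estimate at that level. DESeq2 1.42.0 size factors were an alternative. Depth ran from 34261236 to 48446195 counts per library. Because no contrast was made, no p-value is given.

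Gene types and GC came from GENCODE M21 by gene identifier, promoters from the RefSeq table by symbol, which matched 13282 of 25083 rows with a symbol. The rule named the 4 markers, the highest 30 genes, the 3 highest members of each list and up to 5 lowest members of receptor and marker lists, the 10 genes of largest and the 10 of smallest CV at 10 FPKM or more, Tlr4, Ly96, Cd14 and Prdx1. Other genes were named for their known roles after their values were seen. The members and the 51 gene lists were chosen with earlier results of these data known. Listed genes without a row were not analysed here, and some genes that the rule or the lists name are not reported here.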

Additional observations from a re-analysis of the deposited data

Results flagged for a closer look

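Dixon's criterion for 4 values at the 95% level was applied to 224 named genes with at least 40 reads. By it, 17 had 1 library far from the other 3. Chance flags about 1 in 20 independent genes, but the 17 cannot be set against that share. Some genes were named for their CV in these same libraries, mt-Nd4l and mt-Atp6 among them, or after their values were seen. Genes of 1 library also deviate together. Library 1 was the distant one for 6 genes, library 2 for 7, library 4 for 4 and library 3 for 0.

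In library 1, Abca1 stood at 0.464 FPKM (the other 3 libraries 0.279 to 0.303), Csf2ra at 8.47 FPKM (6.67 to 6.71), Hsp90ab1 at 1079 FPKM (987 to 995), Itgal at 4.14 FPKM (2.99 to 3.18) and mt-Nd4l at 38.2 FPKM (7.85 to 10.2), all high. Casp1 was low there at 19.8 FPKM (22.6 to 23.1).

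In library 2, Tnf stood at 15.8 FPKM (11.2 to 11.5 in the other 3 libraries), Cd40 at 2.65 FPKM (1.75 to 1.85), Lyz2 at 3016 FPKM (2684 to 2729), Fcgr3 at 24.3 FPKM (22.1 to 22.5), Mcm3 at 81.9 FPKM (76.3 to 77.1) and mt-Atp6 at 135 FPKM (31.4 to 41.7), all high. Sirpa was low there at 61.0 FPKM (64.2 to 64.5).

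In library 4, Ddx3y stood at 6.74 FPKM (4.93 to 5.22 in the other 3 libraries) and Lamp1 at 537 FPKM (509.9 to 514), both high. Tcirg1 was low there at 52.1 FPKM (57.4 to 58.3) and Unc93b1 at 139 FPKM (148 to 149).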

How the results depend on the processing

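The count of genes present was 6484 at 5 FPKM or more, against 10259 at 1 FPKM, and it stayed within 1.5 times of 10259 under a threshold of 0.5 FPKM, TPM, TMM-adjusted library sizes and a mean of at least 1 FPKM. The count of genes near zero was 5113 when taken as at most 3 reads in all, against 9818. As shares of summed FPKM, the highest 50 genes held 33.5%, ribosomal protein genes 14.4% and mitochondrially encoded genes 8.64%. The biological coefficient of variation was 0.127 with no filter on low counts, 0.0938 for genes of at least 10 CPM and 0.101 to 0.124 when each library was left out in turn. The median gene CV was 25.1% with no filter, 7.55% for genes of at least 10 FPKM and 7.57% to 9.69% when each library was left out. Levels of the 396 named or listed genes moved by less than 1 SD with TMM-adjusted library sizes and with log2 means at a pseudocount of 1 or 0.1. Both outcomes were close to fixed in advance and say little about stability. The TMM factors ran only from 0.974 to 1.02, and a log2 mean lies near the plain mean. Leaving out 1 of 4 libraries cannot move a mean by 1 SD, so those recomputations say nothing about the stability of levels. Of 306 recounts of list members present 18 moved by more than 1.5 times, 15 of them at 5 FPKM. Without library 2, 2 dendritic cell markers were present, against 1. Counts were too few to rank genes under 0.1 FPKM. No paired analysis was possible because no comparison between groups was made.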
